A study of Mus musculus with 71 samples.

Results

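The aryl hydrocarbon receptor pathway was followed through 7 genes, namely the receptor Ahr, its partner Arnt, its repressor Ahrr, and the genes Tiparp, Cyp1a1, Cyp1b1, and Nqo1 that the receptor is known to induce. They were chosen by name and make up 7 of the 24475 gene identifiers of each bulk table, and all 7 were present in the 3 bulk and 6 single-cell tables. The series compared Btnl2-KO with WT mice on a C57BL/6 background in 71 samples. Btnl2 encodes a butyrophilin-like protein, and in the Btnl2-KO mice a LacZ cassette knocked into the gene abolishes it in all cells and not in one cell type alone.

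γδ intraepithelial lymphocytes (γδ IELs), the T cells that lie between the cells of the gut lining, were sorted as CD45+TCRβ-TCRγδ+ cells, and each library pooled 2 mice. The labels give those mice as 10 weeks old, and there were 4 WT libraries per segment and 3, 4, and 3 Btnl2-KO libraries for the duodenum, jejunum, and ileum. Intestinal epithelial cells (IECs) came from mice of 7 weeks, with 3, 3, and 2 WT and 2, 3, and 3 Btnl2-KO libraries in the same order of segments. Whole tissue gave 7 WT and 7 Btnl2-KO libraries of the small intestine and 6 WT and 7 Btnl2-KO libraries of the colon, from mice that the labels describe only as young. Single cells of sorted γδ IELs from mice of 8 to 10 weeks gave 1 library per segment and genotype, and the study drew them from the same sorted samples as the bulk libraries, so that the bulk and single-cell values are not independent of each other.

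The aryl hydrocarbon receptor waits in the cytoplasm in a complex with HSP90 until it binds a ligand, such as a plant indole from the diet, a tryptophan metabolite, or dioxin. It then enters the nucleus, pairs with ARNT, and binds DNA at a short core motif, GCGTG, from which it induces enzymes that break its ligands down and proteins that shut it off again. In the mouse gut the receptor is known for its part in maintaining intraepithelial lymphocytes and for inducing cytochrome P450 enzymes in the epithelium.

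The core motif was searched on both strands of the 250 bases before a start listed for each gene in RefSeq (GRCm38.p6). Of the 7 genes 6 matched, and 28.2% of all 32851 such windows held the motif. Ahrr held it 3 times, and Arnt, Cyp1a1, Cyp1b1, and Tiparp held it once, whereas the letters did not occur in the window of Nqo1. A longer form, TNGCGTG, occurred in 4.10% of all windows and here once, in Ahrr, where it overlaps the last of the 3 core motifs. The windows of the 4 genes whose levels differed most between fractions or segments are shown, 5′ to 3′ on the strand of the gene, with the core motif in capitals, written as CACGC where it lies on the other strand.
Ahrr, chr13:74292332-74292581, minus strand: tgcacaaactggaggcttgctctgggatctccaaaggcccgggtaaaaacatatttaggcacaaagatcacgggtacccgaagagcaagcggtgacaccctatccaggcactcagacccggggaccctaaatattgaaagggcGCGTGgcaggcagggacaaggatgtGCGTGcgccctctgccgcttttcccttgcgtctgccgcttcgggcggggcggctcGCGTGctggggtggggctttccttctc
Tiparp, chr3:65528197-65528446, plus strand: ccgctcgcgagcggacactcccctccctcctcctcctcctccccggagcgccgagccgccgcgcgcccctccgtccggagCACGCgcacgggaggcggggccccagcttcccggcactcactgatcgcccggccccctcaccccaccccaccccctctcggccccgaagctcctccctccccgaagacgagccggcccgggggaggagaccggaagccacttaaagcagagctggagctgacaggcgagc
Cyp1a1, chr9:57697363-57697612, plus strand: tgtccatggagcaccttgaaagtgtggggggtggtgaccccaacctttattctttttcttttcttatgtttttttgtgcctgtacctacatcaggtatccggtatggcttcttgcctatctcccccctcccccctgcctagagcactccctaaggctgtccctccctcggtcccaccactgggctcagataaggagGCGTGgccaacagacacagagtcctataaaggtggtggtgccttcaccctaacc
Cyp1b1, chr17:79715062-79715311, minus strand: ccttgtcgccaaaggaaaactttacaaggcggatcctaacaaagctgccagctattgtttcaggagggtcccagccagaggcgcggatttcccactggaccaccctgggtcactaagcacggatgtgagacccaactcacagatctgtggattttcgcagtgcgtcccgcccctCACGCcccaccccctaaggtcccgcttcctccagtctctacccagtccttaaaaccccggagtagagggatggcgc
Of the members not shown, Ahr lies on chromosome 12 from 35497979 to 35534989, Arnt on chromosome 3 from 95434367 to 95497240, and Nqo1 on chromosome 8 from 107388225 to 107403205 of the same build. The start used need not be the outermost end of a gene. The window of Cyp1a1 lay inside the range of its gene, 57687928 to 57703824, and that of Arnt ran past the first base of its gene. In Ahrr the core motifs began 107, 82, and 27 bases before the start. In Cyp1a1, Cyp1b1, and Tiparp the single motif lay from -54 to -50, -76 to -72, and -170 to -166. These are matches of letters, and binding was not measured.

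Total counts were 13444958 to 30029485 per γδ IEL library, 15397757 to 38258472 per IEC library, and 13619309 to 21708721 per tissue library. All 10 γδ IEL markers were detected in the γδ IEL libraries, where their summed level was 40019 to 103606 CPM (counts-per-million of the library, TMM-normalized), against 26.7 to 458 in IEC and 22.1 to 342 in tissue libraries. The γδ IEL libraries also held epithelial RNA, with a summed level of 12 pan-epithelial genes of 605 to 9223 CPM, against 8901 to 14519 in IEC libraries. Btnl2 was at 0 to 0.123 CPM in the Btnl2-KO γδ IEL libraries and at 2.47 to 9.89 in the WT ones. Of the Btnl2-KO IEC libraries, 3 went against their labels. Duodenum replicate 1 held 5.45 and jejunum replicate 2 held 19.5 CPM of Btnl2 with 220.3 and 484 CPM of Fabp6, which marks the ileum. Ileum replicate 1, by its label, held only 0.231 CPM of Fabp6. The other Btnl2-KO IEC libraries had 0.342 to 0.595 CPM of Btnl2, and the WT ones 25.1 to 67.7.

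The members fell into different patterns over the 3 fractions. Averaged over libraries, Tiparp, a mono-ADP-ribosyltransferase that modifies the receptor and limits it, stood at 119 ± 28.1 CPM in γδ IELs (SD, n = 22), 23.0 ± 4.57 in IECs (n = 16), and 31.6 ± 7.44 in tissue (n = 27). Ahrr, which competes with the receptor for ARNT, stood at 23.7 ± 9.23, 0.447 ± 0.211, and 4.03 ± 1.79 CPM in the same order. The γδ IEL libraries did not overlap those of the other fractions for either gene. The lowest γδ IEL library had 62.2 CPM of Tiparp and 11.9 of Ahrr, and the highest library elsewhere had 50.5 and 8.00. The share of all genes that separate groups in this way was not counted, here or for the segments, tissues, and genotypes below. Ahr itself was at 30.2 ± 8.43, 14.8 ± 5.32, and 27.7 ± 6.30 CPM, and here γδ IELs and tissue overlapped.

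Of the other members, Arnt and Nqo1 averaged lower in γδ IELs than elsewhere, and Cyp1a1 and Cyp1b1 were under 10 counts in most libraries of γδ IELs. Arnt, the shared partner of several PAS-domain proteins, averaged 30.7 ± 12.9 CPM in γδ IELs, 49.7 ± 5.10 in IECs, and 69.4 ± 5.62 in tissue. This does not hold in each segment, since WT jejunal γδ IELs averaged 49.03 CPM of Arnt and WT jejunal IECs 49.4, and the highest γδ IEL library, at 55.6, overlapped both other fractions. Nqo1, a quinone reductase that NRF2 also induces, averaged 11.1 ± 6.55, 33.8 ± 7.83, and 25.6 ± 5.22 CPM. Cyp1b1, a cytochrome P450 of stromal cells and other cell types, had 0 or 1 count in γδ IEL libraries, 0 to 3 counts in IEC libraries, and 1 to 485 counts in tissue libraries. Cyp1a1, the classical inducible P450, reached 47 counts in γδ IELs, 485 in IECs, and 7 in tissue. Each fraction is a table of its own, normalized separately, and the labels give different ages for the γδ IEL and IEC mice and none in weeks for tissue, so that fraction and table cannot be told apart, and these levels were not tested.

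Divided by the length of all exons of a gene, the levels can be ordered between genes. In bulk γδ IELs the order was Tiparp at 27.4 CPM per kb, Nqo1 at 7.17, Ahr at 4.89, Arnt at 3.84, and Ahrr at 2.51. Cyp1a1 followed at 0.153, and Cyp1b1 lay below all of them. The place of Nqo1 holds for the bulk libraries only, which also held epithelial RNA whose part in Nqo1 was not tested. In the single-cell libraries Nqo1 was at 0.143 to 0.877 CPM, against 46.5 to 48.9 for Ahr. The ranges of Nqo1, Ahr, Arnt, and Ahrr over the 22 libraries overlapped, and Tiparp overlapped only Nqo1, whose highest library was at 14.31 CPM per kb against the lowest of Tiparp at 14.28. In IECs, Nqo1 came first at 21.8 CPM per kb, ahead of Arnt at 6.21 and Tiparp at 5.28, and in tissue Nqo1 at 16.5 came ahead of Arnt at 8.67.

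Among the bulk libraries of WT γδ IELs, the receptor, its partner, its repressor, and Tiparp were all highest in the jejunum. Ahr was measured at 25.3, 29.2, 29.0, and 23.97 CPM in the 4 duodenal libraries, 43.8, 30.6, 41.8, and 44.5 in the jejunal ones, and 26.0, 20.5, 23.3, and 23.9 in the ileal ones. Every jejunal library was thus above every library of the other segments, although the lowest exceeded the highest duodenal one by little. Ahrr was at 16.8, 16.6, 21.0, and 14.5 CPM in the duodenum, 44.1, 27.3, 36.3, and 39.7 in the jejunum, and 25.4, 11.9, 15.3, and 20.1 in the ileum. Arnt was at 14.2, 20.6, 33.1, and 22.9 CPM in the duodenum, 52.3, 38.9, 55.6, and 49.4 in the jejunum, and 19.2, 15.98, 21.1, and 30.3 in the ileum. Neither gene overlapped between the jejunum and the other segments. Tiparp was at 62.2, 89.9, 108, and 69.4 CPM in the duodenum, 150.4, 138, 162, and 141 in the jejunum, and 106, 99.2, 103, and 119 in the ileum, again without overlap.

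**Figure D1:**
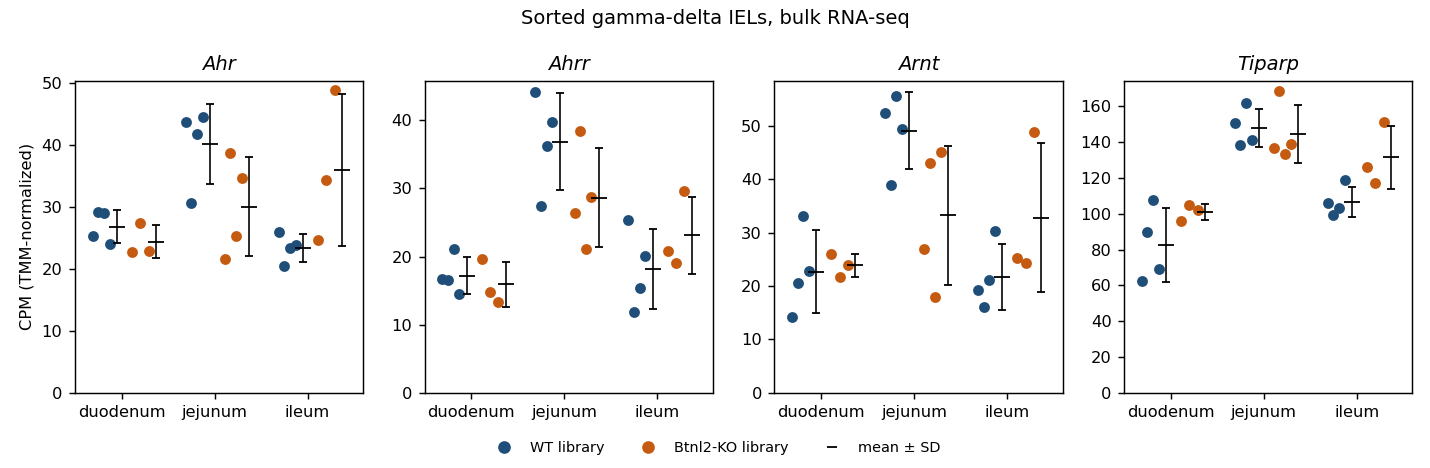
CPM of Ahr, Ahrr, Arnt, and Tiparp in bulk libraries of sorted γδ IELs by segment, with 1 point per library, blue for WT and orange for Btnl2-KO, and bars for the mean ± SD. All 4 WT jejunal libraries lie above the WT libraries of the duodenum and ileum for each gene, and the Btnl2-KO libraries of the jejunum and ileum spread more widely for Ahr and Arnt.

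The study cut each small intestine into its segments, so libraries of different segments may come from the same mice, and since the labels do not match them, the segment tests treated all libraries as independent. A gene was called when its false discovery rate (FDR, Benjamini-Hochberg over all genes tested with edgeR) was below 0.05 and its fold change above 1.5. Between jejunum and duodenum, Ahrr, Arnt, and Tiparp of the 5 members tested rose, whereas 10.4% of all 12899 genes tested rose. The log2 fold change was 1.08 for Ahrr (SE 0.22, FDR 0.0038), 1.10 for Arnt (SE 0.24, FDR 0.0054), and 0.83 for Tiparp (SE 0.15, FDR 0.0026). For Ahr it was 0.57 (SE 0.14, FDR 0.0099), a fold of 1.48 that missed the fold minimum, and for Nqo1 it was -0.72 with an FDR of 0.159.

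Between ileum and jejunum, Ahr, Ahrr, and Arnt fell, whereas 10.5% of all genes tested fell. Both comparisons use the same jejunal libraries and are not independent of each other. Ahr fell by 0.76 on the log2 scale (SE 0.14, FDR 0.0047), Ahrr by 0.998 (SE 0.22, FDR 0.0067), and Arnt by 1.16 (SE 0.24, FDR 0.0057). Tiparp had a log2 difference of -0.45 (FDR 0.037) under the fold minimum, and Nqo1 of 0.47 (FDR 0.351). Between ileum and duodenum, edgeR, DESeq2, and limma-voom called 0 of the 5 members, against 2.11% of all genes with edgeR, of which 1.03% fell. The estimate there was -0.19 for Ahr with a 95% interval from -0.50 to 0.12, and 0.38 for Tiparp with an unadjusted p of 0.026, the only one under 0.05.

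The 6 calls were kept in each of the 12 refits that left out 1 WT library. The libraries of the jejunum also stood apart in another value. Counts assigned to Lars2, a mitochondrial leucyl-tRNA synthetase gene, were 1456 to 1662 CPM in the 4 WT jejunal libraries, 3646 to 31867 in the duodenal, and 4076 to 11751 in the ileal ones. With the log2 level of Lars2 as a covariate, a fit chosen after seeing the data, 0 of the 6 calls were kept. The jejunum-duodenum estimates were then 0.31 for Ahr, 0.57 for Ahrr, 0.09 for Arnt, and 0.15 for Tiparp, and the ileum-jejunum estimates were -0.56, -0.61, -0.39, and 0.083. Of all genes tested, 0 were then called between jejunum and duodenum and 9 between ileum and jejunum. The jejunal range of Lars2 did not overlap that of the other segments, and the part of Lars2 in the result was not tested. In bulk samples, fewer cells that express a gene and less of its RNA per cell cannot be told apart.

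In the single-cell libraries of the same cell type the segments lay closer together, and Ahr was not highest in the jejunum in either genotype. Between 3589 and 4647 cells per library passed the filters, with 19043347 to 27933823 unique molecular identifiers (UMIs) in sum and a median of 4877 to 5468 per cell, and Cd3e, a T cell receptor subunit, was found in 99.5 to 99.9% of the cells of a library. Ahr was at 47.7, 46.5, and 47.7 CPM of all UMIs in the WT duodenum, jejunum, and ileum, and at 48.9, 47.0, and 47.4 in the Btnl2-KO libraries. The ratio of WT jejunum to duodenum was 0.974 for Ahr, with a 95% interval for counting error from 0.890 to 1.07. With 1 library per group there was no test, and all intervals of single-cell values cover counting error only.

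Tiparp was lowest in the duodenum in both genotypes. It was at 71.3, 86.3, and 84.4 CPM in the WT duodenum, jejunum, and ileum and at 80.2, 95.6, and 87.4 in the Btnl2-KO libraries. The ratio of WT jejunum to duodenum was 1.21 (interval 1.13 to 1.30), and the ratio in Btnl2-KO libraries was 1.19 (1.12 to 1.27). Ahrr was at 13.7, 16.5, and 14.4 CPM in the WT libraries, with a ratio of jejunum to duodenum of 1.20 (1.02 to 1.42). Arnt was at 25.6, 26.1, and 22.1, with a ratio of 1.02 (0.902 to 1.15). Lars2 took 1930 to 2617 CPM in the 6 libraries, a far narrower range than in bulk.

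**Figure D2:**
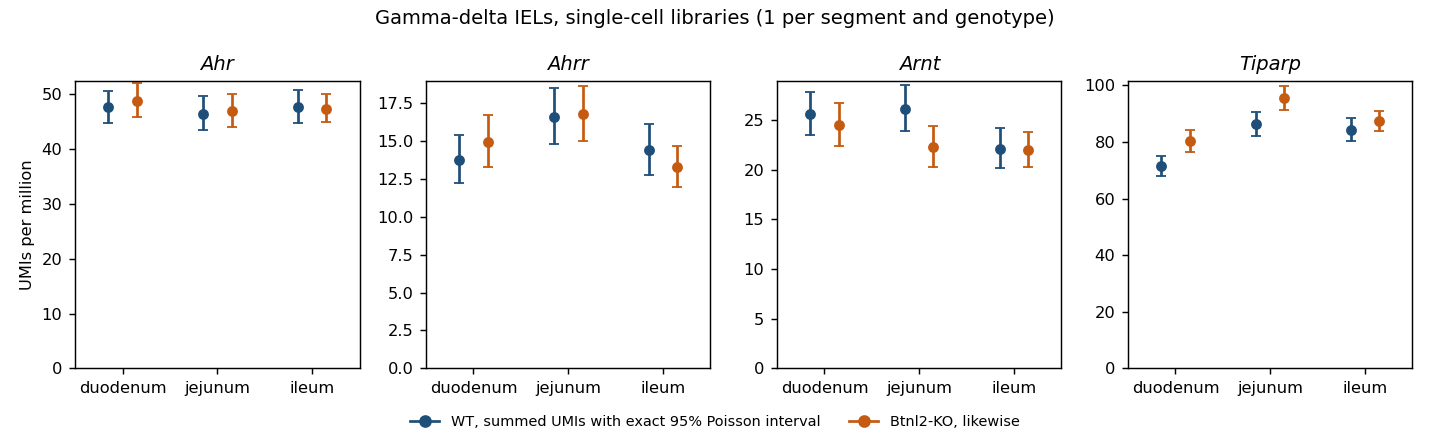
Summed UMI counts of each library, as CPM of all its UMIs, for Ahr, Ahrr, Arnt, and Tiparp in the 6 single-cell libraries of γδ IELs, 1 point per library with its exact 95% Poisson interval, blue for WT and orange for Btnl2-KO. The 6 points of Ahr lie between 46.5 and 48.9, whereas those of Tiparp range from 71.3 to 95.6.

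A UMI of Ahr was found in 19.9 to 22.4% of the cells of a library, and in 8.17 to 9.19% after each cell was thinned to 2000 UMIs. For Tiparp in WT cells the share was 30.5% in the duodenum and 33.1% in the jejunum, or 13.7 and 15.4% after thinning. No cell type that should lack these genes was present in sufficient number, so free RNA was gauged by Fabp1, a fatty acid binding protein of enterocytes, which was found in 3.66% of the cells of the WT duodenum and 0.947% of those of the WT jejunum. Cells with over 1% of pan-epithelial UMIs numbered 1 to 9 per library. No doublet caller was run. Between 19 and 31 cell barcodes were shared by a pair of libraries.

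Cyp1a1 and Cyp1b1 had 0 UMIs in the kept cells of all 6 libraries, for example 0 of 3911 cells in the Btnl2-KO duodenum, where the exact binomial interval of the share reaches 0.0943%. This limits the share of cells with a UMI, not of cells that express the gene. Nqo1 had 4 to 18 UMIs per library, and of the 18 in the WT ileum 13 lay in the few cells rich in epithelial UMIs. Among the 76 barcodes of the Btnl2-KO duodenum that failed the filters, 2 held 12 UMIs of Cyp1a1. In the bulk γδ IEL libraries Cyp1a1 had 41, 22, 8, and 5 counts in the WT duodenum and 47, 0, and 22 in the Btnl2-KO duodenum, at most 8 counts in a jejunal library, and 0 in every ileal one. How far epithelial RNA accounts for the levels of Cyp1a1 and Nqo1 in the bulk γδ IEL libraries was not tested.

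In WT IECs, the enzymes Cyp1a1 and Nqo1 were highest in the duodenum. Cyp1a1 was at 3.97, 23.1, and 3.69 CPM in the 3 duodenal libraries, 0.0318, 0.980, and 0.165 in the jejunal ones, and 0 in both ileal ones. The groups did not overlap, and the duodenal mean of 10.3 ± 11.1 CPM (SD, n = 3) rested mostly on replicate 2. Against a floor of 3 counts over the 2 ileal libraries, Cyp1a1 was at least 188-fold lower in the ileum than in the duodenum (edgeR FDR 0.028), and without duodenal replicate 2 this bound was 70.1-fold. It was the only one of 6 members tested that fell between these segments, where 2.38% of all 13046 genes tested fell and 6.59% were called in either direction. Without ileal replicate 1, ileal replicate 2, or jejunal replicate 3 the FDR was 0.165, 0.134, and 0.054, and with all IEC libraries in 1 fit, which called 0 of all genes, it was 0.155. The jejunal mean was 0.392 CPM, a log2 difference from the duodenum of -4.58 (SE 1.08) that missed the threshold with an FDR of 0.127.

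Nqo1 was at 42.9, 54.0, and 41.5 CPM in the duodenum, 32.1, 32.97, and 24.6 in the jejunum, and 27.6 and 27.1 in the ileum. All duodenal libraries were above all others, but the log2 difference from the duodenum was -0.61 (SE 0.17, FDR 0.190) for the jejunum and -0.72 (SE 0.20, FDR 0.067) for the ileum. With DESeq2 and with limma-voom, the second of these had an FDR of 0.014 and 0.017 and was called, where 4.36% and 4.91% of all genes fell. Between jejunum and duodenum edgeR called 0 of the 6 members, where 0.767% of all genes were called and 2 members had an unadjusted p under 0.05, and DESeq2 and limma-voom gave Cyp1a1 FDRs of 0.05002 and 0.0513. Between ileum and jejunum it called 0, where 0.644% of all genes were called and 0.437% rose, and no member had an unadjusted p under 0.05. Ahr ranged from 7.92 to 29.8 CPM over all IEC libraries, Arnt from 41.0 to 59.0, and Ahrr from 0.146 to 0.770. No segment comparison called these 3 members, with FDRs of at least 0.583.

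**Figure D3:**
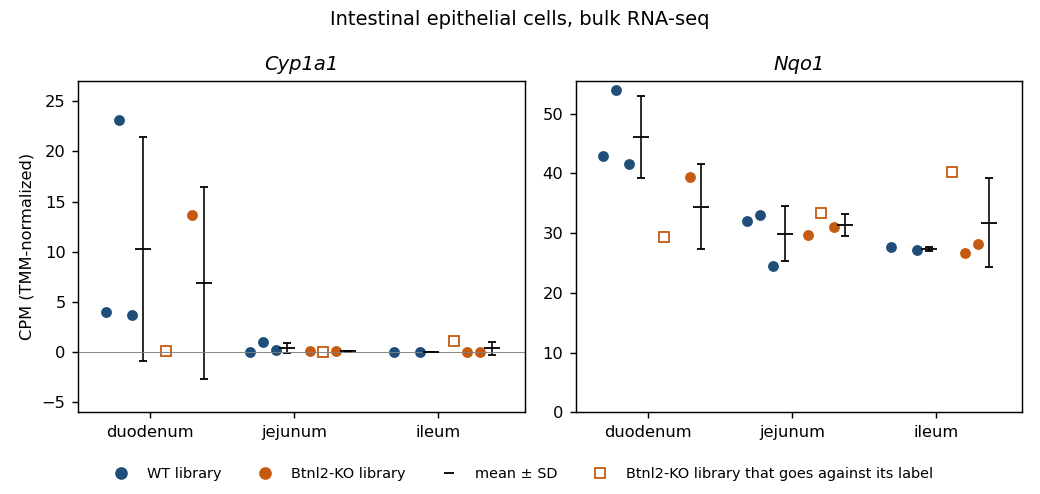
CPM of Cyp1a1 and Nqo1 in bulk IEC libraries by segment, with 1 point per library, blue for WT, orange for Btnl2-KO, an open square for the 3 libraries that went against their labels, and bars for the mean ± SD. Cyp1a1 is over 3 CPM only in duodenal libraries, and the square under the ileum, at 1.15 CPM, is the ileal library that held almost no Fabp6.

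The genes most like Cyp1a1 over the 16 IEC libraries were Plin2, a lipid droplet protein, Sdhb, a subunit of succinate dehydrogenase, and Acaa2, a thiolase of fatty acid oxidation, with a Pearson r of log2(CPM + 1) of 0.977, 0.974, and 0.971. Only 6 of the 16 libraries held at least 10 counts of Cyp1a1, so these values rest on few libraries. Those most like Nqo1 were Adh5, Isca1, and Ppa2 at 0.976, 0.960, and 0.955. In γδ IELs the genes nearest to Ahr over 22 libraries were Slf2, Git2, and Dock10 at 0.938, 0.937, and 0.937, and those nearest to Ahrr were Nsmaf, Zfand2a, and Arhgef3 at 0.962, 0.954, and 0.949. In tissue, Nqo1 was followed most closely by Nanp, Orai2, and Surf6 at 0.822, 0.816, and 0.816 over 27 libraries. The libraries of a table share segments, genotypes, and RNA composition, and these correlations are descriptions without a test.

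Whole tissue differed between colon and small intestine in Cyp1b1 and Ahrr. In WT mice Cyp1b1 was at 11.05, 13.2, and 23.9 CPM in the lowest, median, and highest of 7 small intestine libraries and at 0.174, 0.237, and 0.470 in the lowest, median, and highest of 6 colon libraries. Ahrr was at 2.71, 5.84, and 8.00 CPM in the small intestine and at 1.99, 2.56, and 3.07 in the colon. Cyp1b1 was separated widely, whereas for Ahrr the lowest small intestine library lay within the colon range. Cyp1b1 fell by 5.85 on the log2 scale in the colon (SE 0.29, edgeR FDR 1.3e-09), a fold of 57.8, and Ahrr by 1.18 (SE 0.22, FDR 0.00056). These 2 of the 6 members tested fell, where 15.6% of all 15162 genes tested fell and 12% rose. Markers of fibroblasts, among the cells known to express Cyp1b1, summed to 1593 to 2422 CPM in WT small intestine and 1429 to 2815 in WT colon and thus overlapped. The part of fibroblasts or other cells in the difference of Cyp1b1 was not tested. Markers of γδ IELs, in which Ahrr was high, summed to 156 to 315 CPM in WT small intestine and 23.7 to 56.3 in WT colon, and their part in the difference of Ahrr was not tested.

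The receptor itself was not called. Ahr was at 15.3, 23.6, and 28.5 CPM in the lowest, median, and highest WT small intestine library and at 30.3, 34.7, and 35.7 in the colon. No colon library overlapped, and the log2 difference of 0.57 (SE 0.11, FDR 8.8e-04) was a fold of 1.48 and missed the fold minimum. Tiparp was at 26.8, 32.99, and 39.3 CPM in the small intestine and 20.5, 24.6, and 28.7 in the colon, a log2 difference of -0.42 (FDR 0.0038) under the fold minimum. Nqo1, with a log2 difference of 0.23 and a 95% interval from -0.07 to 0.53, and Arnt, with 0.03 from -0.10 to 0.16, were not called. Cyp1a1 had 0 to 7 counts in tissue libraries and was not tested.

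**Figure D4:**
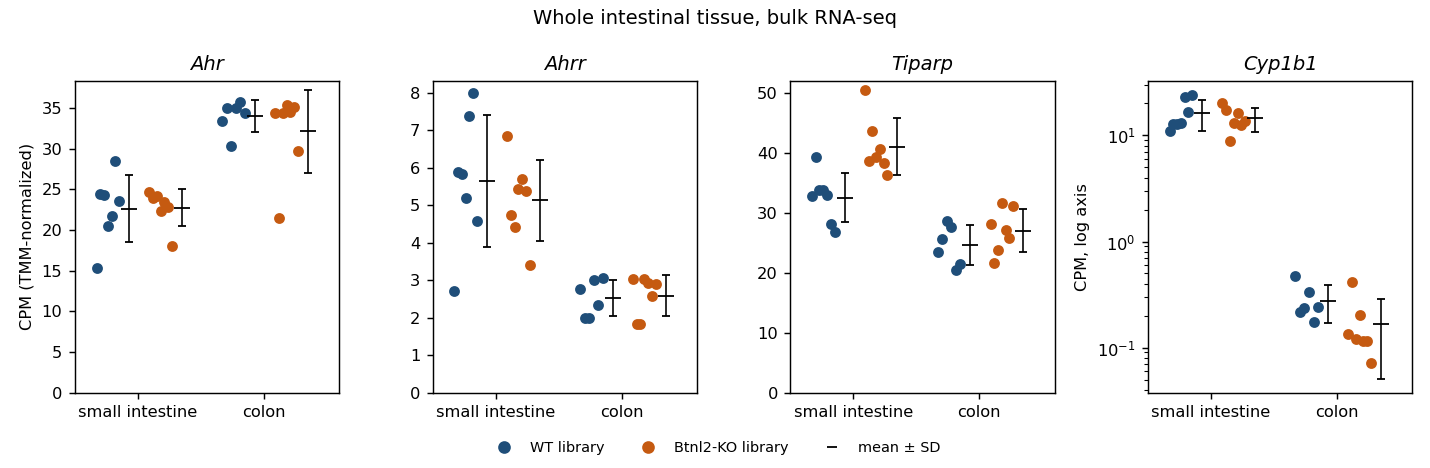
CPM of Ahr, Ahrr, Tiparp, and Cyp1b1 in whole tissue libraries of small intestine and colon, with 1 point per library, blue for WT and orange for Btnl2-KO, bars for the mean ± SD, and a log axis for Cyp1b1. Cyp1b1 is over 8 CPM in every small intestine library and below 0.5 in every colon library.

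Other genes of the pathway, and genes linked to it, were taken from 6 lists of 38 genes in all. The lists were the receptor complex, the receptor's gene battery other than the members, and NRF2 targets. The others were tryptophan catabolism, other PAS-domain proteins, and lymphocyte genes linked to the receptor. Between WT γδ IELs of jejunum and duodenum, 6 of the 27 tested rose and 5 fell, where 10.4% of all genes rose and 12.1% fell. The pooled median log2 difference was 0.23, against 0.02 over all genes. By list, the median was -2.28 for the battery, -0.37 for the receptor complex, and -0.11 for tryptophan catabolism. It was 0.16 for other PAS-domain proteins, 0.50 for NRF2 targets, and 1.10 for the lymphocyte genes. The pooled values thus mix lists that went in opposite directions, each with 2 to 7 genes tested. The list genes that differed most were Gsta1, a glutathione transferase of the receptor's gene battery, which fell from 106 to 6.86 CPM, and Epas1, a hypoxia-inducible factor that also pairs with ARNT, which fell from 1.43 to 0.169. Ugt1a6a, a glucuronosyltransferase of the same battery, fell from 5.21 to 1.07 CPM, and Hsp90aa1, a chaperone of the receptor complex, fell from 764 to 384. Kit, a receptor tyrosine kinase among the lymphocyte genes linked to the receptor, rose from 66.1 to 169 CPM. Enterocyte markers had a median sum of 1780 CPM in WT duodenal and 549 in WT jejunal γδ IEL libraries, with overlapping ranges. In single cells the 7 genes of the battery list together were at 71.0 CPM in the WT duodenum and 69.7 in the WT jejunum. This sum also holds other genes and does not show Gsta1 or Ugt1a6a alone, and Epas1 is not on that list. The part of epithelial RNA in the bulk differences of Gsta1, Ugt1a6a, and Epas1 was not tested.

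Between ileum and jejunum 3 of the 27 rose and 3 fell, with 11.4% of all genes rising and 10.5% falling. Kit fell to 71.6 CPM, Hif1a, another partner of ARNT, fell from 80.2 to 38.05, and Ncoa1, a coactivator, fell from 31.0 to 18.6. Hsp90aa1 rose to 725 CPM and Epas1 to 1.12. Between ileum and duodenum only Gsta1 was called, which fell from 106 to 6.94 CPM, where 133 of all 12899 genes tested fell. The enterocyte markers had a median sum of 164 CPM in the WT ileum, against 1780 in the WT duodenum. The pan-epithelial genes went the other way, at 7599 against 4270, and the part of epithelial RNA was not tested. The calls in γδ IELs share the jejunal or duodenal libraries. Lars2 moved with those that involve the jejunum, as it did with the members, whereas its duodenal and ileal ranges overlapped.

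In WT IECs 2 of the 5 battery genes tested fell from duodenum to ileum and 1 rose, where 311 of all 13046 genes tested fell. From duodenum to jejunum 1 fell, where 41 of all 13046 fell. Ugt1a6a fell from 23.8 CPM in the duodenum to 3.995 in the jejunum and 4.70 in the ileum, with log2 differences of -2.54 (FDR 0.019) and -2.31 (FDR 0.013). Gsta1 fell from 50.5 in the duodenum to 5.47 CPM in the ileum (log2 difference -3.17, FDR 0.020), and Ido1, which opens the breakdown of tryptophan to kynurenine, rose from 1.70 to 6.83. The jejunal mean of Gsta1 was 15.9 CPM and was not called. Lpcat2, also of the battery, rose from 0.531 to 1.57 CPM and Kit from 17.03 to 40.4. These were all the calls between ileum and duodenum, 3 higher and 2 lower of 28 list genes tested, where 4.21% of all genes rose. Epas1 fell from 22.2 CPM in the duodenum to 6.65 in the jejunum and rose to 21.2 from there to the ileum. Between ileum and jejunum 57 of all 13046 genes tested rose.

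Between colon and small intestine tissue 7 of 30 list genes rose and 6 fell, where 12% of all genes rose and 15.6% fell. Ido1 fell from 24.97 CPM in the small intestine to 1.38 in the colon, with a log2 difference of -4.18 (SE 0.45). Aldh3a1, an aldehyde dehydrogenase of the gene battery, rose from 0.203 to 0.891 CPM, and Hif1a rose from 63.4 to 174. Gsta1 fell from 16.8 to 5.66 CPM, and Srxn1, a sulfiredoxin that NRF2 induces, fell from 201 to 72.3.

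Loss of Btnl2 did not lead edgeR to call any member. Over the 8 comparisons of Btnl2-KO with WT, of which each tested 5 or 6 members, 0 were called, against 0.00946% of all tests of a gene. DESeq2 called 0 and limma-voom with sample quality weights called 1, and 5 had an unadjusted p under 0.05 with edgeR. None of the 38 list genes was called either. In duodenal γδ IELs, jejunal γδ IELs, and ileal IECs 0.00789%, 0.00794%, and 0.00774% of all genes were called. In each case this was 1 gene that fell. In ileal γδ IELs, duodenal IECs, and jejunal IECs 0 genes were called, and so Btnl2 itself was not called. Yet Btnl2 averaged 2.98, 51.3, and 41.9 CPM in these WT groups and 0.0412, 2.89, and 6.89 in the Btnl2-KO ones. These Btnl2-KO IEC means include libraries that went against their labels. In these comparisons the lack of a called member does not show a lack of change.

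Of these 5, 2 were in ileal γδ IELs. Ahr was at 24.7, 34.3, and 48.9 CPM in the 3 Btnl2-KO libraries, against 26.0, 20.5, 23.3, and 23.9 in the WT ones. The lowest Btnl2-KO library lay within the WT range, and the log2 difference was 0.64 with a 95% interval from 0.09 to 1.19 (unadjusted p 0.027, FDR 0.521). The Btnl2-KO library with 34.3 CPM of Ahr had 42893 CPM of Lars2, and that with 48.9 had 1217. In the duodenum the difference of Ahr was -0.14 with an interval from -0.48 to 0.21, and in the jejunum -0.38 from -0.84 to 0.08. The difference between the ileal and duodenal effects was 0.76 (SE 0.30, unadjusted p 0.021, FDR 0.716).

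Nqo1 was at 3.15, 0.882, and 7.91 CPM in ileal γδ IELs of Btnl2-KO mice, against 5.90, 16.2, 15.1, and 15.9 in WT mice. The groups overlapped in 1 WT library, and the log2 difference was -1.71 with an interval from -3.09 to -0.34 (unadjusted p 0.019, FDR 0.497). It was the member that limma-voom called, at -2.15 with an FDR of 0.025, and with that tool 816 of 12604 genes fell (6.47%), against 0 with edgeR. The pan-epithelial genes summed to 1025 to 3669 CPM in the same Btnl2-KO libraries and to 3464 to 9223 in the WT ones. All 12 genes were detected in both groups. With the mean of these genes as a covariate the Nqo1 difference was -0.20 (SE 0.39), and the cause of this change was not tested.

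In the single-cell libraries, Ahr differed little by genotype, with ratios of Btnl2-KO to WT of 1.02, 1.01, and 0.994 in duodenum, jejunum, and ileum. The ileal ratio had a counting interval from 0.915 to 1.08. For Tiparp the ratios were 1.12, 1.11, and 1.04, and the first and the second had intervals above 1. For Nqo1 in the ileum the counts were 4 against 18, a ratio of 0.163 with a counting interval from 0.0402 to 0.496, and of these 2 and 13 lay in cells rich in epithelial UMIs.

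In jejunal IECs, Tiparp was at 30.0, 32.4, and 28.2 CPM in Btnl2-KO and 23.8, 18.2, and 22.9 in WT libraries. The groups did not overlap, and the log2 difference was 0.47 (SE 0.16, unadjusted p 0.016, FDR 0.568). The library with 32.4 CPM was jejunum replicate 2, which went against its label. Cyp1a1 in duodenal IECs was at 0.134 and 13.7 CPM in the Btnl2-KO libraries, and the lower one was duodenum replicate 1, which also went against its label. Its log2 difference of -0.55 had an interval from -3.68 to 2.59 and became 0.43 without that library and 0.85 without WT replicate 2.

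In small intestine tissue, Tiparp was at 36.4, 39.2, and 50.5 CPM in the lowest, median, and highest of 7 Btnl2-KO libraries and at 26.8, 32.99, and 39.3 in those of 7 WT libraries. All 7 Btnl2-KO libraries were above 6 of the 7 WT libraries, the highest WT library lay among them, and the log2 difference was 0.33 (SE 0.10, unadjusted p 0.0038, FDR 0.116). With DESeq2 its FDR was 0.035, at a fold under the minimum. Arnt was at 70.2, 73.2, and 79.0 CPM in Btnl2-KO and at 59.2, 66.0, and 72.4 in WT libraries, with a log2 difference of 0.16 (SE 0.06, unadjusted p 0.018, FDR 0.153). Fabp6, which marks the ileum, ranged from 105 to 2714 CPM over the WT and from 431 to 3985 over the Btnl2-KO small intestine libraries, which the labels do not divide by segment, and the part of this in both differences was not tested. In colon tissue Tiparp differed by 0.13 with an interval from -0.09 to 0.36, and Arnt by 0.01 from -0.15 to 0.17. The difference between the colon and small intestine effects was -0.18 for Tiparp (FDR 0.578) and -0.13 for Arnt (FDR 0.536). Over all 5 contrasts of the genotype effect between segments edgeR, DESeq2, and limma-voom called 0 members, against 0.00435% of all tests with edgeR, and 1, that of Ahr above, had an unadjusted p under 0.05.

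**Figure D5:**
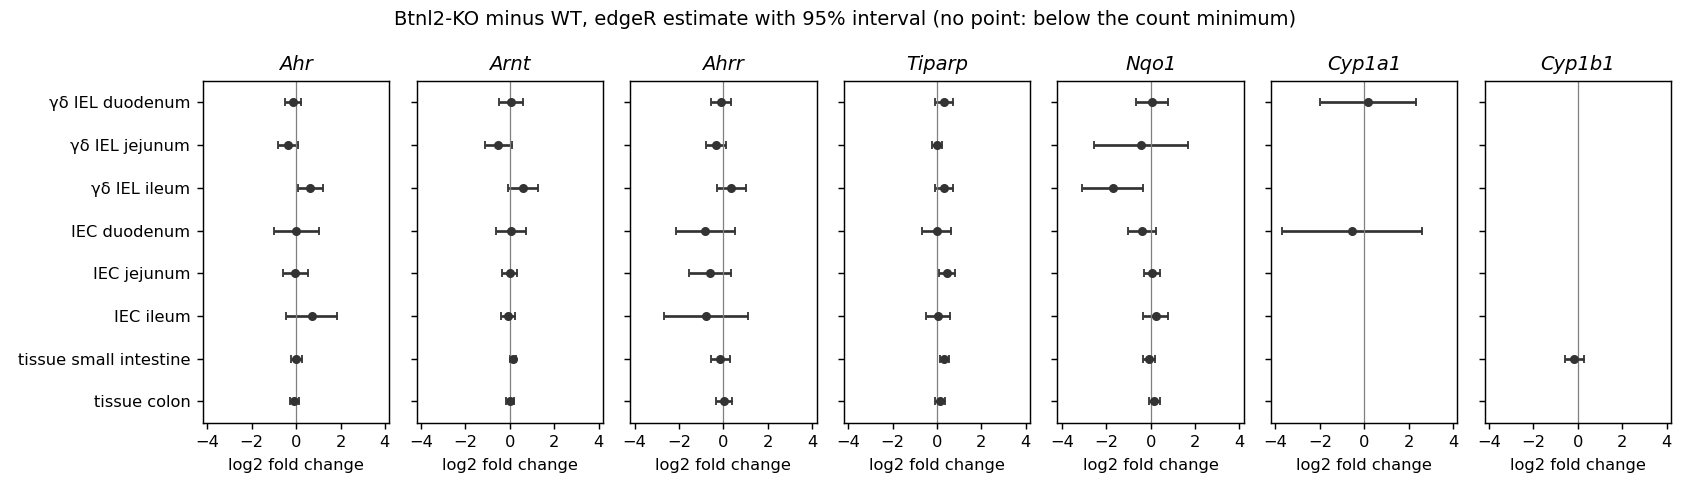
Log2 fold change of Btnl2-KO against WT for each member in the 8 bulk comparisons, with the edgeR estimate as a point and its 95% interval as a bar. Most intervals span 0, those of Cyp1a1 are the widest, and no point is drawn where a gene was below the count minimum.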

How the data were processed

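Bulk RNA-sequencing was available for 65 libraries and single-cell RNA-sequencing for 6, and groups were taken from the sample labels. The authors mapped bulk reads with ArrayStudio and estimated reads per gene with RSEM, and the deposited values are expected counts, not normalized. The labels' processing notes name the build GRCm38. The methods of the study and the labels name different library kits, and which applies was not settled. For single cells, the deposited values are UMI counts per gene and barcode that the authors made with Cell Ranger. Of the γδ IEL columns, 1, of a sample not in the labels, was left out.

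Expected counts were rounded to whole numbers. A gene was tested if it reached 10 counts in a number of libraries equal to the smallest group compared. The test was edgeR 4.0.16 (quasi-likelihood, TMM normalization), with 1 fit per genotype comparison, 1 fit over the WT groups of a table for the segments, and all libraries of a table for the interactions. Calls needed an FDR below 0.05 over all genes tested and a fold above 1.5. CPM were computed on TMM-normalized totals within each table, and levels per kb used the union of a gene's GENCODE exons of the same build. Correlations used log2(CPM + 1) over genes with at least 10 counts in no fewer libraries of the table than lacked them. Barcodes under 500 genes or over 10% mitochondrial UMIs were dropped, and counts of a library were summed. Shares have exact binomial and sums exact Poisson 95% intervals.

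Alternatives were DESeq2 1.42.0 (with its own size factors and independent filtering), limma-voom with sample quality weights (limma 3.58.1), relative log expression size factors, no filter, filterByExpr, no minimum fold, other sets of libraries in the fit, the pan-epithelial level or that of Lars2 as a covariate, each library left out, and stricter or looser filters on cells. The Lars2 covariate was chosen after seeing the data. The fits were tested on simulated counts that had the same dispersion for every gene and changes only in genes with high counts. That test does not show how many changes are found at the spread of these libraries. Every pair of replicates differed by more than sampling noise (chi-square per degree of freedom at least 5.28). Labels do not say that all bulk libraries of a group are separate animals, and segments, or colon and small intestine, may share mice, so p-values measure the spread between these libraries.

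The 7 members and the gene lists were chosen with earlier results of these data known. Named genes are the members, Btnl2, up to 5 called list genes per comparison by size of the log2 fold change, the 3 genes nearest in pattern to Ahr, Ahrr, Cyp1a1, and Nqo1 in the tables where these were examined, and marker genes. Fabp1, Fabp6, Cd3e, and Lars2 are named as checks of the libraries. Genes nearest to Cyp1a1 in tissue are not given, since no library reached 10 counts.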

Additional observations from a re-analysis of the deposited data

Results flagged for a closer look

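Among the 44 combinations of a member and a group of 4 to 10 libraries that were checked, 7 held a library whose gap to its nearest neighbour was large against the range of the group by Dixon's criterion, which chance meets in about 1 of 20 groups. In γδ IELs, Tiparp was at 169 CPM in jejunal Btnl2-KO replicate 2, with the next library at 139. Nqo1 was at 5.90 CPM in ileal WT replicate 1, with the next at 15.1, and at 16.6 in jejunal WT replicate 2, with the next at 8.19. In tissue, colon Btnl2-KO replicate 2 stood apart for both Ahr (21.5 CPM, the next at 29.7) and Arnt (51.1 CPM, the next at 70.9). Small intestine Btnl2-KO replicate 7 had 17.99 CPM of Ahr, with the next at 22.3, and colon WT replicate 6 had 71.6 CPM of Arnt, with the next at 68.0.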

How the results depend on the processing

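Refits were counted for 28 member fold changes, those called, with an unadjusted edgeR p under 0.05, or picked by name. Other member fold changes are not in these counts. Of the 211 refits under alternatives other than leaving out a library, 196 kept their direction and their side of the thresholds. Of the 307 refits without 1 library, 296 did. For the genotype comparisons the count of members called was 0 in the alternatives run, except 1 with limma-voom. For γδ IEL segments it was 6, and 9 with limma-voom or with no filter on low counts, 8 with no minimum fold, 5 with the pan-epithelial mean as covariate, 6 to 8 when 1 library was left out, and 0 with the Lars2 level as covariate, where the ileum-jejunum estimate of Tiparp turned from -0.45 to 0.083. For IEC segments the count was 1, with DESeq2 2, with limma-voom 2, with all libraries of the table in 1 fit 0, and between 0 and 1 when 1 library was left out (0 without jejunal replicate 3, ileal replicate 1, or ileal replicate 2). For colon against small intestine it was 2, 4 with no minimum fold, and 2 to 3 when 1 library was left out. The interactions stayed at 0 in the alternatives run. The log2 fold change of Cyp1a1 in duodenal IECs of Btnl2-KO mice turned from -0.55 to 0.43 without the 3 IEC libraries that went against their labels, and without single libraries it ranged from -6.16 to 0.85, with 0.43 without Btnl2-KO replicate 1 and 0.85 without WT replicate 2. The causes of these changes were not tested.

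The count of all genes called moved by more than 1.5 times in several comparisons. For γδ IEL ileum against duodenum edgeR called 139 higher and 133 lower, DESeq2 270 and 228, and edgeR with all libraries in 1 fit 60 and 64. For IEC ileum against duodenum it called 549 and 311, limma-voom 998 and 640, and edgeR with all libraries in 1 fit 0 and 0. For ileal γδ IELs of Btnl2-KO mice edgeR called 0 and 0, DESeq2 2 and 219, and limma-voom 391 and 816. For small intestine tissue of Btnl2-KO mice edgeR called 2 and 1, DESeq2 152 and 25, and limma-voom 38 and 13. With the Lars2 covariate edgeR called 0 genes between γδ IEL jejunum and duodenum, against 1337 higher and 1563 lower without it.

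No paired analysis was possible because the labels carry no replicate numbers, which were given here in accession order, and do not say which segments came from the same mice. Depth limited Cyp1a1 outside duodenal IECs and Cyp1b1 outside small intestine tissue, since most of those libraries held under 10 counts. In single cells, 1 library per group allowed no test.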
